A study of Mus musculus with 6 samples.

Results

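The 52 genes described here encode transcription factors that pattern the developing forebrain, and they were taken by symbol from the count tables of mouse hippocampus, where each was 1 of 23282 rows. They were read as a map of the dissected regions, by their level in each library and by the difference between genotypes. The study compared C57BL/6 mice aged 16 weeks of the genotype PHF2 t/g with wild-type mice (WT) of the same strain and age, in 3 libraries labelled hippocampus per group. PHF2 is a demethylase of histone H3 lysine 9, and PHF2 t/g is read here as a Phf2 transgene. Its construct, its promoter and the cells in which it is active are details not given here by the labels, which also do not say whether a library came from 1 animal or a pool. RNA was read by QuantSeq, which counts each transcript by about 1 tag from its 3′ end, so that a level does not scale with transcript length.

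Most of these factors are homeodomain, LIM-homeodomain, POU, T-box, nuclear receptor or zinc-finger proteins that bind DNA. In the embryo they divide the forebrain into pallium (the future hippocampus and neocortex), subpallium (striatum, septum, parts of the amygdala and most cortical interneurons), thalamus and hypothalamus. Many remain active in adult neurons of the region they helped to form, so their transcripts report which regions and cell types a sample holds. In bulk RNA, fewer cells of a type and less RNA per cell cannot be told apart.

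Of the 52 factors, 37 passed the low-count filter and were tested, and 3 passed the test: the pallial factors Nr2f1 and Satb1 were lower in PHF2 t/g and Six3, a factor of the anterior forebrain and striatum, was higher. That is 8.11% of the tested members, where 2.27% of the 12831 tested genes were called by the same test, edgeR's quasi-likelihood test with a Benjamini-Hochberg adjusted p under 0.05 over all tested genes. Called higher were 1 member against 0.779% of all tested genes, and called lower 2 members against 1.49%. This balance depends on the scaling: with library size alone 3 members were higher (Six3, Zfhx4 and Zic2) and 1 lower (Nr2f1), and over all genes 207 were higher and 70 lower. The groups did not overlap in 12 of the 37 tested members, 32.4%, against 20.6% of all tested genes. PHF2 t/g lay wholly above WT in 5 members (10.1% of all tested genes) and wholly below it in 7 (10.4%).

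The promoters of the 3 called genes are shown because PHF2 acts on chromatin at gene starts, with CG dinucleotides in capitals. Each is the RefSeq window of 300 bases from 250 before to 50 after the start in build GRCm38.p6, 5′ to 3′ on the strand of the gene. For Nr2f1 and Satb1 it is the most upstream of the 2 and 5 starts listed. For Six3 only 1 start was listed, and its window lies inside the RefSeq span of the gene (85613608 to 85626191). The windows lie at chr13:78198824-78199123 (minus strand), chr17:51833241-51833540 (minus strand) and chr17:85620584-85620883 (plus strand).
Nr2f1: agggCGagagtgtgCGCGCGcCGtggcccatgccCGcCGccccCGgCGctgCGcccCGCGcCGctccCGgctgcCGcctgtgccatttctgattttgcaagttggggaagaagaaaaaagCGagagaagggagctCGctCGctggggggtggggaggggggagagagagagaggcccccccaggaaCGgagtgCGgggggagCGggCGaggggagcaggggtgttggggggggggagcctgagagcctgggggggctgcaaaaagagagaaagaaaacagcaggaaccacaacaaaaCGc
Satb1: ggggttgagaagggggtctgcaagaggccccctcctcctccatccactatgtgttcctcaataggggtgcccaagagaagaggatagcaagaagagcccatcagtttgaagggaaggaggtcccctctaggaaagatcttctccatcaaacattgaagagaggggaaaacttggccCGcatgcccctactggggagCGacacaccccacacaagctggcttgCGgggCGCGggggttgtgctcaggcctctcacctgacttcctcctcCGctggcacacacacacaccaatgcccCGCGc
Six3: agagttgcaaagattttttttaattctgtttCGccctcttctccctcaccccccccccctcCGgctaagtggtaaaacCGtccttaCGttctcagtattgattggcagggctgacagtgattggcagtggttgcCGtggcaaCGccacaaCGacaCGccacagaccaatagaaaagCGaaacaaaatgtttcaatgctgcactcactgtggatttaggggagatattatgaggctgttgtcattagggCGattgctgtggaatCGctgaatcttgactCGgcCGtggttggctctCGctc
The Nr2f1 window held 23 CG dinucleotides, that of Six3 14 and that of Satb1 8. Among all 32851 promoter windows in the table the median was 7, and 21.5%, 36.3% and 48.7% held at least as many as Nr2f1, Six3 and Satb1. Over the 57 windows listed for 43 of the members the median was 17. The homeodomain core TAATTA and the POU octamer ATTTGCAT, searched on both strands, were in none of the 3 windows, and were in 5.29% and 1.74% of all windows. These are descriptions of sequence, and no measurement of chromatin was analysed here.

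The libraries held 5512171 to 8844718 counts. Levels are in CPM, counts scaled to one common library size with TMM, the correction of edgeR for library composition. Values with ± are mean ± SD over n = 3 libraries, and fold changes come from the edgeR fit. Phf2 itself was at 35.5, 37.3 and 43.1 CPM in PHF2 t/g and at 38.3, 35.6 and 39.3 CPM in WT (edgeR adjusted p = 0.929), which does not check the labels because the 3′ end of the transgene is not known. The label hippocampus was set against 23 markers of its subfields, among them the member Pou3f1, and Prox1 and Neurod6 of the other pallial factors below. Summed, the 23 markers were at 812 to 912 CPM in PHF2 t/g and 864 to 1000 CPM in WT, with overlap. Of the 20 tested, 1 rose and 0 fell: Wfs1, a marker of CA1, was at 54, 48.1 and 48.8 CPM in PHF2 t/g and at 35.6, 37.4 and 34.7 CPM in WT (edgeR adjusted p = 0.0191). The dentate gyrus markers among them were low: C1ql2 was at 1.29 to 9.8 CPM and Prox1, a factor of granule cells, at 1.77 to 8.76 CPM. They were lowest in replicate 3 of both groups, where C1ql2 was at 1.29 and 1.36 CPM and Dsp at 0.32 CPM and 0. Some markers of striatal neurons were more abundant than these dentate markers, with Drd1 at 97.8 to 160 CPM and Ppp1r1b at 138 to 188 CPM. Drd2 and Gpr6, from the same list of striatum markers, were nearly absent, as given below. Levels of different genes do not measure the share of a tissue. Within the hippocampal list levels were mixed, with Neurod6 at 76.4 to 155 CPM and Cpne4 at 46.2 to 92.6 CPM. By these markers it cannot be told whether the libraries hold hippocampus alone, or all of its subfields, in either group. Of 20 hindbrain and spinal cord factors 18 were below the low-count filter, and En1 and Hoxa5 had 0 counts in all 6 libraries. The tested ones, Phox2a (27.7 to 34.4 CPM) and Gata2 (0.76 to 2.84 CPM), had overlapping groups and were not called.

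**Figure D1:**
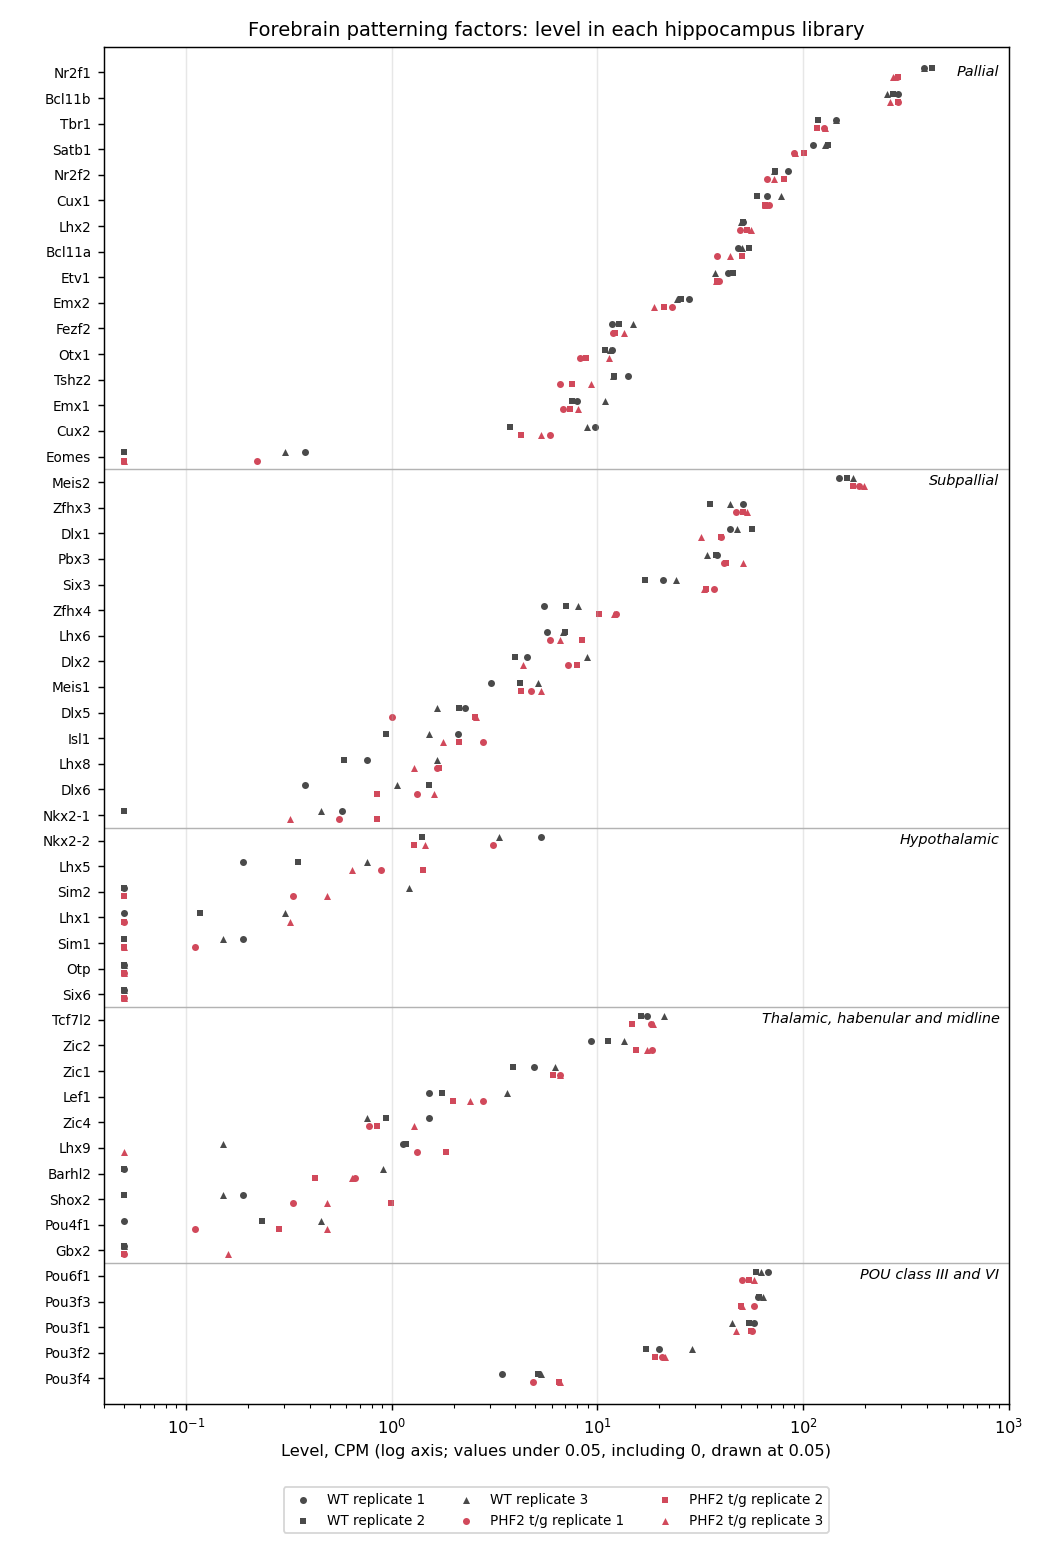
Level of each of the 52 factors in CPM (log axis) in the 3 WT (grey) and 3 PHF2 t/g (red) libraries, ordered by level within each regional group. Pallial factors reach the highest levels, with Nr2f1 up to 424 CPM, while Otp and Six6 are at 0 in all 6 libraries.

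In WT 5 of the 52 factors were at 100 CPM or more, 19 from 10 to under 100, 14 from 1 to under 10 and 14 under 1 CPM, as the plot of member levels shows. The order at the top was Nr2f1 (399 ± 21.7 CPM), Bcl11b (273 ± 15.7), Meis2 (163 ± 12.3), Tbr1 (136 ± 15.3) and Satb1 (124 ± 11.1). The WT libraries of each of the first 3 lay above those of the next in this order, and those of Tbr1 and Satb1 overlapped. In PHF2 t/g the libraries of Nr2f1 (273 to 288 CPM) and Bcl11b (264 to 290 CPM) overlapped. The coefficient of variation among libraries had a median of 12.9% in WT and 9.83% in PHF2 t/g over the 37 tested members, close to 12.1% and 9.47% over all tested genes.

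Among the 16 pallial factors, 15 were tested, 2 fell, 0 rose and 13 did not pass. Their median log2 fold change was −0.21, with 13 of 15 below 0, against a median of 0.02 over all tested genes, of which 53.9% were above 0. With library size alone in place of TMM 10 of 15 were below 0 and the median was −0.11, while that of all genes moved to 0.12.

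Nr2f1 (also called COUP-TFI; chromosome 13, 78188971 to 78198873, GRCm38) is a nuclear receptor that sets cortical areas and shapes hippocampal growth. PHF2 t/g replicates 1 to 3 held 285, 288 and 273 CPM of it and WT replicates 387, 424 and 385 CPM. All 3 PHF2 t/g libraries lay below all 3 WT libraries, and the gap between the groups was wider than the spread within either. It fell 1.41-fold (log2 fold change −0.50, SE 0.0759, 95% interval −0.66 to −0.34; edgeR adjusted p = 0.00124). An antisense gene, A830082K12Rik, was at 3.11 to 6.47 CPM, so few tags were assigned to that row, and its groups overlapped. The position of A830082K12Rik relative to Nr2f1 was not checked here. Nr2f2 (COUP-TFII), the paralog that marks caudal interneurons and parts of the amygdala, was at 66.6, 80.9 and 72.4 CPM in PHF2 t/g and at 84.9, 73.1 and 72.6 CPM in WT. Its groups overlapped and it did not pass (edgeR log2 fold change −0.07, 95% interval −0.28 to 0.15).

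Satb1 (chromosome 17, 51736187 to 51833290) organises chromatin loops. It is listed with the pallial factors, but interneurons, which come from the subpallium, need it to mature and express it too. It was at 89.9, 101 and 91.5 CPM in PHF2 t/g and at 111, 132 and 128 CPM in WT. The groups did not overlap, although the highest PHF2 t/g library came close to WT replicate 1. It fell 1.32-fold (log2 fold change −0.40, SE 0.0912; edgeR adjusted p = 0.0273). This call was lost with library size alone (edgeR adjusted p = 0.103), in limma-voom (0.0616) and when the fit was not robust (0.0593), and without PHF2 t/g replicate 1, 2 or 3 (0.231, 0.0819 and 0.122) or WT replicate 3 (0.0803).

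Tshz2, a zinc-finger factor of retrosplenial and deep cortical neurons, had the largest negative fold change among the pallial factors but narrowly missed the threshold. It was at 6.55, 7.53 and 9.33 CPM in PHF2 t/g and at 14.1, 12.1 and 12 CPM in WT, and these groups did not overlap (log2 fold change −0.71, SE 0.186; edgeR adjusted p = 0.0509). It passed with the size factors of DESeq2 in edgeR, with the CPM filter, without any low-count filter and without WT replicate 2. Emx2, a homeodomain factor without which the hippocampus does not grow to size, was at 23.1, 21 and 18.8 CPM in PHF2 t/g and at 28, 25.5 and 24.5 CPM in WT. Its groups did not overlap either, and its edgeR adjusted p was 0.279.

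The other pallial factors had overlapping groups. Bcl11b (CTIP2), a marker of CA1, dentate granule cells, deep cortex and striatum, was at 264 to 290 CPM in PHF2 t/g and at 257 to 288 CPM in WT. Tbr1, a T-box factor of early-born glutamatergic neurons, was at 127, 117 and 128 CPM in PHF2 t/g and at 145, 119 and 145 CPM in WT (edgeR log2 fold change −0.14, 95% interval −0.33 to 0.06). Lhx2, which selects cortical identity and opposes the hippocampal organiser, was at 52.8 ± 3.22 and 50.6 ± 0.615 CPM. Factors of neocortical layers were mixed in level: Cux1 was at 66.4 ± 1.7 and 68.1 ± 9.44 CPM, Fezf2, which specifies subcerebral projection neurons, at 12.5 ± 0.864 and 13.1 ± 1.56 CPM, and Cux2, an upper-layer factor, at 5.15 ± 0.824 and 7.47 ± 3.23 CPM in PHF2 t/g and WT. Bcl11a, Etv1, Otx1 and Emx1 had edgeR log2 fold changes of −0.14 to −0.28 and did not pass. Eomes (Tbr2), which marks intermediate progenitors of newborn neurons, had 6 counts in all and was not tested.

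The summed level of the 16 pallial factors was 1099 to 1146 CPM in PHF2 t/g and 1287 to 1310 CPM in WT, with no overlap. Without Nr2f1 and Satb1 the sums were 734 to 757 CPM in PHF2 t/g and 750 to 811 CPM in WT, and the groups overlapped.

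**Figure D2:**
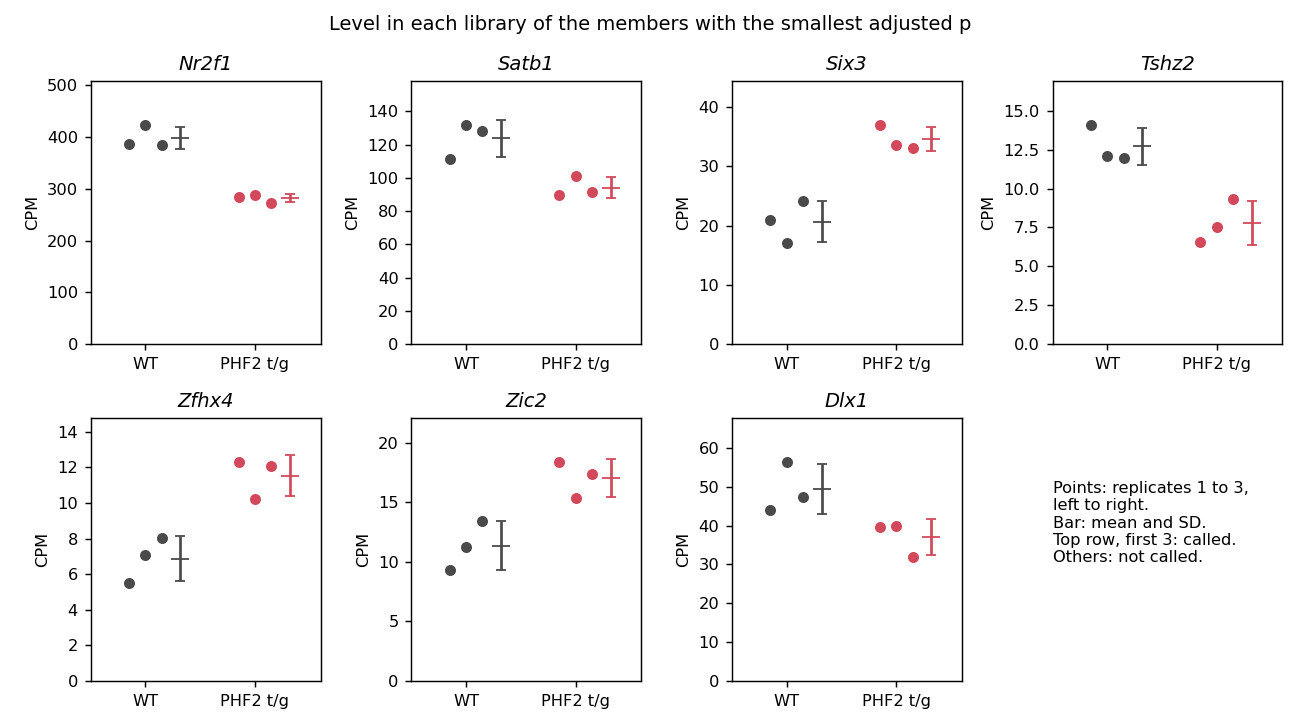
Level in CPM (axes from 0) of the 7 factors with the smallest adjusted p in each library, with the mean and SD (n = 3) beside the points. In each panel the 3 PHF2 t/g libraries and the 3 WT libraries do not overlap; Nr2f1, Satb1 and Six3 passed the test and Tshz2, Zfhx4, Zic2 and Dlx1 did not.

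Among the 14 subpallial factors, 12 were tested, 1 rose, 0 fell and 11 did not pass. Their median log2 fold change was 0.21, with 10 of 12 above 0. All tested genes had a median of 0.02, with 53.9% above 0. With library size alone 11 of 12 subpallial factors were above 0 and their median was 0.31, while that of all genes moved to 0.12. With that scaling 9160 of the 12831 genes were above 0.

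Six3 (chromosome 17, 85613608 to 85626191) is a homeodomain factor needed for the anterior forebrain and kept on in striatal neurons. PHF2 t/g replicates 1 to 3 held 37, 33.7 and 33.1 CPM of it and WT replicates 20.9, 17 and 24.1 CPM. The lowest PHF2 t/g library was above the highest WT library by more than the range within either group. It rose 1.68-fold (log2 fold change 0.75, SE 0.135, 95% interval 0.47 to 1.04; edgeR adjusted p = 0.00493). The call was lost without PHF2 t/g replicate 1 (edgeR adjusted p = 0.0984), where the fold change was still 0.70 on the log2 scale. The antisense gene Six3os1 was listed at 0 in all 6 libraries. Six6, the closest relative of Six3 among the members and a factor of the eye, pituitary and suprachiasmatic nucleus, had 0 counts in every library.

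Zfhx4, a large zinc-finger and homeodomain protein, was at 12.3, 10.2 and 12.1 CPM in PHF2 t/g and at 5.52, 7.05 and 8.02 CPM in WT. All PHF2 t/g libraries were above all WT libraries, and the gene missed the threshold (log2 fold change 0.74, SE 0.192; edgeR adjusted p = 0.0509). It passed with library size alone (edgeR adjusted p = 0.0301) and without the low-count filter (0.0169). Its relative Zfhx3 was at 47.3, 51 and 53.6 CPM against 50.8, 35.5 and 44.2 CPM, and these libraries overlapped.

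Meis2 and Pbx3, TALE homeodomain cofactors abundant in the striatum, both lay above WT in every PHF2 t/g library without passing. Meis2 was at 187, 176 and 198 CPM in PHF2 t/g and at 150, 164 and 174 CPM in WT (log2 fold change 0.20, SE 0.0835; edgeR adjusted p = 0.261). Pbx3 was at 41.1, 42.3 and 51.3 CPM against 38.1, 37.7 and 34.2 CPM (log2 fold change 0.29; edgeR adjusted p = 0.237). Meis1 was much lower, at 4.78 ± 0.525 and 4.14 ± 1.05 CPM, with overlapping groups.

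None of the Dlx genes, which start the GABAergic programme, passed the test. Dlx1 lay below WT in every PHF2 t/g library, at 39.7, 39.9 and 31.9 CPM against 44.2, 56.5 and 47.5 CPM (log2 fold change −0.41, SE 0.123; edgeR adjusted p = 0.0909). Its antisense gene Dlx1as was at 22.6, 25.3 and 18.7 CPM in PHF2 t/g and at 25.5, 24.3 and 24.8 CPM in WT. Because the strand setting of the counting is not given, tags of Dlx1 and Dlx1as cannot be told apart with certainty. Dlx2 (6.5 ± 1.91 and 5.83 ± 2.7 CPM) and Dlx5 (2.04 ± 0.904 and 2.02 ± 0.32 CPM) had overlapping groups, and Dlx6, with 50 counts in all, was not tested. Lhx6, a factor of interneurons from the medial ganglionic eminence, was at 6.95 ± 1.28 and 6.48 ± 0.673 CPM. Nkx2-1, which precedes it in those cells, had 19 counts in all. Lhx8 and Isl1, factors of cholinergic and striatal neurons, were at 1 to 2.23 CPM on average in either group, had edgeR log2 fold changes of 0.66 and 0.64, and did not pass.

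The summed level of the 14 subpallial factors was 381 to 404 CPM in PHF2 t/g and 329 to 360 CPM in WT. Without Six3 it was 348 to 371 CPM and 308 to 335 CPM, still with no overlap. Beside this, 11 markers of the striatum that are not transcription factors summed to 840 to 959 CPM in PHF2 t/g and 646 to 738 CPM in WT; of the 9 tested, 3 rose (Penk, Tac1 and Rgs9), 0 fell and 6 did not pass. Over all tested genes 0.779% were called higher. The part of the striatum markers in the level of Six3 was not tested. Drd2, the dopamine receptor of indirect-pathway striatal neurons, had at most 0.45 CPM in any library, and Gpr6, from the same neurons, at most 0.15 CPM. Other genes of those neurons were abundant: Penk (enkephalin) was at 119 to 255 CPM. Adora2a, their adenosine receptor, was at 70.1, 73.4 and 89.8 CPM in PHF2 t/g and at 83.9, 111 and 96.5 CPM in WT. It was the 1 tested striatum marker of 9 with a fold change below 0, and its groups overlapped (log2 fold change −0.33, SE 0.116; edgeR adjusted p = 0.169).

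**Figure D3:**
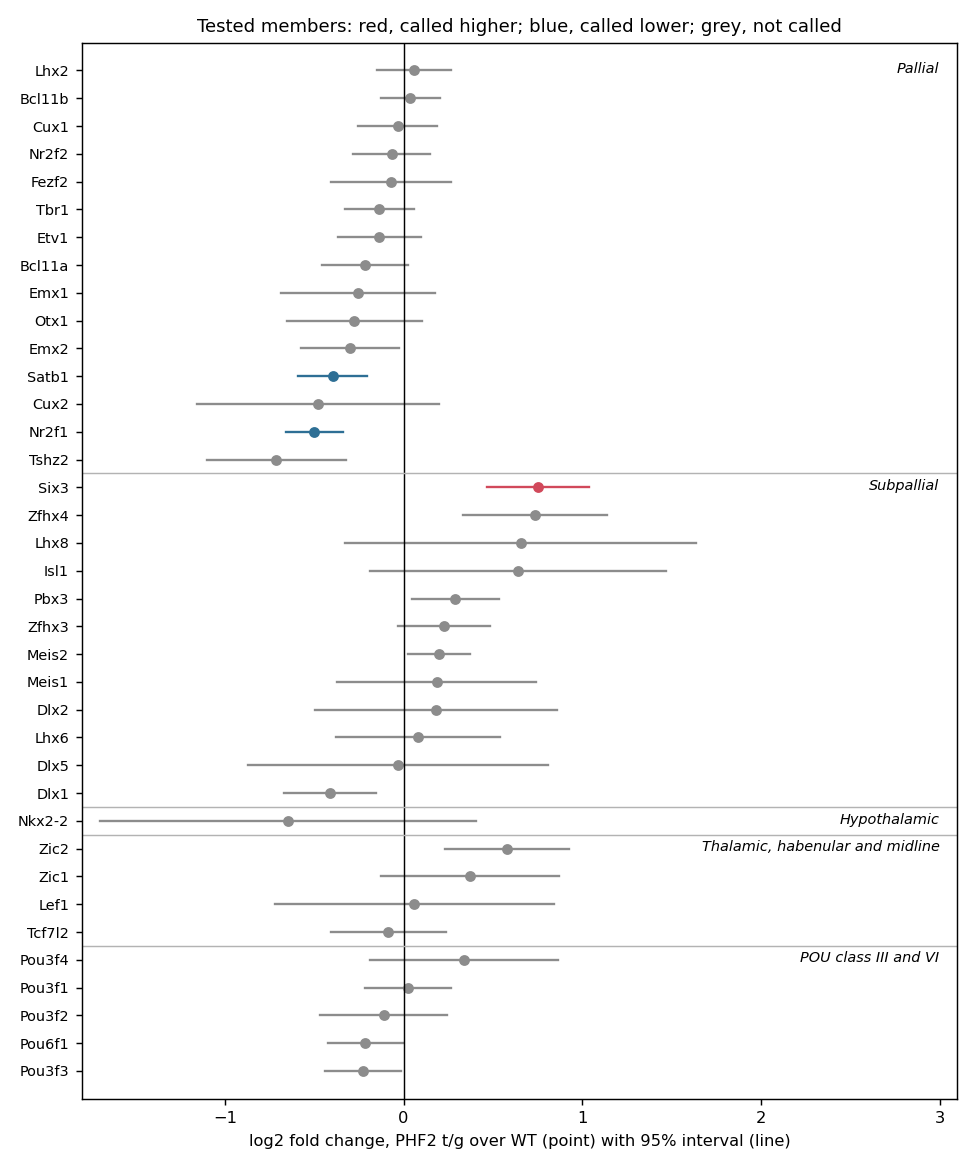
Fold change (log2, PHF2 t/g over WT; points) with its 95% interval (lines) for the 37 tested factors, grouped by region. Of the pallial factors 13 of 15 lie below 0 and of the subpallial factors 10 of 12 above 0, and only Nr2f1, Satb1 and Six3 are coloured as called. The groups were chosen with earlier results of these data known. Other pallial factors (not drawn) had 6 above and 10 below 0, and other subpallial factors 7 above and 7 below.

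Of the 7 hypothalamic factors 6 were below the low-count filter. Otp and Six6 had 0 counts in all 6 libraries, which allows at most 0.0704 CPM over them together (3 counts). Sim1, which with Otp forms the paraventricular and supraoptic neurons that make vasopressin and oxytocin, had 1 count in PHF2 t/g and 2 in WT. Lhx1 had 5 counts in all, Sim2 14 and Lhx5 31, the last split 22 to 9 (ratio 2.24, 95% counting interval 0.99 to 5.52). Nkx2-2 alone was tested, at 3.11, 1.28 and 1.45 CPM in PHF2 t/g and at 5.33, 1.41 and 3.33 CPM in WT. It overlapped between groups and did not pass; oligodendrocyte precursors make it as well.

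These levels stood beside a rise of the hormone genes themselves in the same libraries. Avp (vasopressin) was at 26.9, 28.3 and 26.7 CPM in PHF2 t/g and at 0.38, 0.47 and 0 CPM in WT. Oxt (oxytocin) was at 16.5, 17.6 and 14 CPM against 0, 0.23 and 0.15 CPM. Both passed the test, as did Trh and Irs4. Of 9 tested hypothalamus markers 4 rose, 0 fell and 5 did not pass, where 0.779% of all tested genes were called higher. Avp and Oxt are named here because an earlier report showed them. For Otp, 0 counts over the 3 PHF2 t/g libraries allow at most 0.135 CPM. What this ceiling means for the source of the Avp and Oxt transcripts was not tested.

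Among the 10 factors of the thalamus, habenula and dorsal midline, 4 were tested and none passed. Zic2, a zinc-finger factor of the septum and midline, came nearest: it was at 18.4, 15.3 and 17.4 CPM in PHF2 t/g and at 9.33, 11.3 and 13.5 CPM in WT. The groups did not overlap (log2 fold change 0.58, SE 0.164; edgeR adjusted p = 0.0762), and it passed with library size alone (edgeR adjusted p = 0.0408) and without the low-count filter (0.0288). Zic1 was at 6.55, 6.11 and 6.6 CPM against 4.95, 3.88 and 6.2 CPM, with overlap. Zic4 had 21 counts in each group.

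Tcf7l2, a Wnt effector that is strong in thalamus and habenula, was at 18.2, 14.8 and 18.7 CPM in PHF2 t/g and at 17.5, 16.3 and 21 CPM in WT. The groups overlapped, and the 95% interval of the log2 fold change was −0.40 to 0.24 by edgeR. Lef1, its relative, was at 2.39 ± 0.394 and 2.31 ± 1.15 CPM. Gbx2, the factor of early thalamic neurons, had 1 count in all, Pou4f1 (Brn3a), which marks the medial habenula, 11, Barhl2 19 and Lhx9 42. Shox2, another factor of thalamic neurons, had 13 counts in PHF2 t/g and 2 in WT (ratio 5.95, 95% counting interval 1.35 to 54.3). It was the only 1 of the 15 untested members in which the groups did not overlap, where 20.6% of all tested genes did not. Shox2 was at 0.33, 0.99 and 0.48 CPM in PHF2 t/g and 0.19, 0 and 0.15 CPM in WT. Of 9 tested thalamus and habenula markers that are not factors, 0 rose and 0 fell, and 6 had a fold change below 0. The 12 markers of that list summed to 128 to 135 CPM in PHF2 t/g and 140 to 147 CPM in WT, with no overlap.

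None of the 5 POU factors passed. These proteins bind octamer-like sites, and the class III genes act in neural progenitors and maturing neurons. Pou3f1 (Oct6), made by CA1 pyramidal cells, was at 56.5, 56.1 and 47.3 CPM in PHF2 t/g and at 58.1, 54.5 and 44.9 CPM in WT, which overlapped. Pou3f3 (Brn1) was at 57.5, 50 and 50.5 CPM against 60.2, 60.9 and 64.2 CPM, and Pou6f1 (Brn5) at 50.7, 54.8 and 57.6 CPM against 67.2, 59.2 and 62.8 CPM. In both the PHF2 t/g libraries lay below those of WT, with log2 fold changes of −0.23 and −0.21 (edgeR adjusted p = 0.292 and 0.331). Pou3f2 (20.3 ± 1.13 and 22 ± 6.04 CPM) and Pou3f4 (6 ± 0.97 and 4.63 ± 1.05 CPM) had overlapping groups.

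**Figure D4:**
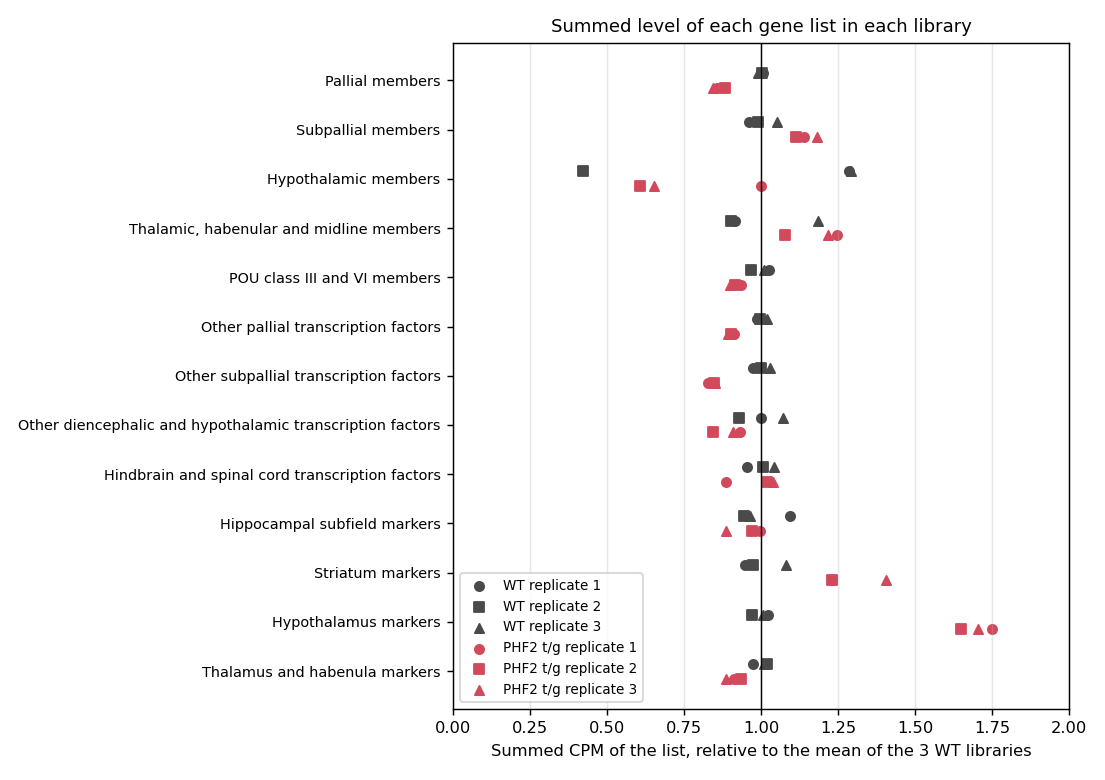
Summed CPM of each gene list in each library, divided by the mean of the 3 WT libraries (line at 1), for the 5 groups of members and 8 other lists, choroid plexus markers not drawn. The pallial and POU members lie below WT in all 3 PHF2 t/g libraries and the subpallial members above it, while the hypothalamic members spread widely in both groups.

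Other regional factors outside the 52 were set beside them. Of 16 other pallial factors, all tested, 1 fell, 0 rose and 15 did not pass, with a median log2 fold change of −0.12. The one that fell was Nfix, a nuclear factor I protein of hippocampal development, at 139, 145 and 140 CPM in PHF2 t/g against 196, 218 and 187 CPM in WT (log2 fold change −0.50, SE 0.0817; edgeR adjusted p = 0.00213). Of 17 other subpallial factors 14 were tested and 1 fell: Foxp1, which striatal, cortical and CA1 neurons all make, was at 505, 531 and 527 CPM against 643, 676 and 669 CPM (log2 fold change −0.35; edgeR adjusted p = 0.0164). Their median was 0.03, with 7 above and 7 below 0. The 17 summed to 699 to 718 CPM in PHF2 t/g and 822 to 869 CPM in WT, the opposite direction to the sum of the 14 subpallial members, and Foxp1 is the greater part of that sum. Foxp2, a paralog of Foxp1, at 19.5, 19.5 and 25.6 CPM against 15.6, 15 and 12.9 CPM, did not pass (edgeR adjusted p = 0.0626). Of 18 other diencephalic and hypothalamic factors 3 were tested and none passed, Rora having the smallest p (edgeR adjusted p = 0.288).

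Replicate 3 of both groups was low in dentate markers and in Fibcd1 and Spink8 of CA1, and the comparison was repeated without both. Nr2f1 (edgeR log2 fold change −0.51, adjusted p = 0.0418) and Six3 (0.90, adjusted p = 0.0251) still passed, and Satb1 did not (−0.35, adjusted p = 0.241). Of 4 tested choroid plexus markers 0 were called. Without PHF2 t/g replicate 1, whose level of the choroid plexus gene Ttr was 292 CPM against 1.29 to 4.46 CPM elsewhere, and WT replicate 2, Nr2f1 alone passed (edgeR adjusted p = 0.00429).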

How the data were processed

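RNA of mouse hippocampus was extracted with Trizol and made into QuantSeq 3′ end libraries, per the labels' protocols. The authors deposited a file of raw, whole-number counts for each library, with a gene symbol in each row. Bowtie2, edgeR and build mm10 are named in the submitters' processing notes; the counting program, annotation, strand setting and filters were not given in any source used here. Groups and replicate numbers come from the sample titles. The 44 rows with a repeated symbol, among 23282, stayed separate.

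Genes were kept by filterByExpr, scaled by TMM and tested by the quasi-likelihood test of edgeR 4.0.16 (R 4.3.3) with a robust fit and a model of genotype alone. P-values were adjusted by Benjamini and Hochberg's method over 12831 genes, and 0.05 was the threshold. The counting intervals, and the floor of 3 counts, hold for counting error alone. No label says that samples were separate animals, and the p-values measure only how these libraries vary.

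The members, their regional groups and the other lists were chosen with earlier results of these data known. The rule for named genes took members past the threshold, the 3 highest and the 2 with the smallest p in each group, and untested members; all others are named to account for every member. Other settings tried were scaling by library size alone or by the size factors of DESeq2, the tests of DESeq2 1.42.0 and limma-voom 3.58.1, no low-count filter, 1 CPM in 3 libraries, a non-robust fit, a block for the replicate number, each library left out, and a threshold of 0.1. Leaving out pairs of libraries was chosen after seeing the data. Locations (52 of 52 members matched by symbol) and promoters (43 of 52) are RefSeq GRCm38.p6, the build that mm10 names.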

Additional observations from a re-analysis of the deposited data

How the results depend on the processing

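The number of members past the test was 3, and stayed within 2 to 4 with the other scalings, DESeq2, limma-voom, the CPM filter and the fit that was not robust. It was 7 without the low-count filter and 7 at an adjusted p of 0.1, where Dlx1, Tshz2, Zfhx4 and Zic2 were added. With 1 library left out it ranged from 1 (without PHF2 t/g replicate 1) to 5 (without WT replicate 2, which added Cux2 and Tshz2), and it was 1 without PHF2 t/g replicate 1 and WT replicate 2. Nr2f1 passed in all 16 alternatives, Six3 in 14 and Satb1 in 7. Over all genes 291 were called, and 162 by limma-voom, 606 without the low-count filter, 149 with the fit that was not robust, 547 at an adjusted p of 0.1, 49 to 392 with 1 library left out, and 140 and 56 without PHF2 t/g replicate 1 and WT replicate 2 or without both replicates 3. Of the calls 34.4% were higher with TMM, 74.7% with library size alone and 18.5% with DESeq2. DESeq2 gave an adjusted p for only 18 members and 6234 genes, so its counts cover fewer genes than those of edgeR. Small fold changes that did not pass changed sign: Pou3f1 was at −0.0820 to 0.101 with 1 library left out and −0.0013 without both replicates 3, Bcl11b at −0.0116 to 0.0786, and Tcf7l2 at −0.17 to 0.0216 with 1 library left out and 0.0166 with library size alone. The cause was not tested.

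With the replicate number as a block 3 members and 299 genes were called, and the 3 members were Nr2f1, Satb1 and Six3. Libraries that share a number correlated in their deviations from the group means by −0.00445, 0.123 and 0.0846 for numbers 1, 2 and 3. These were not over 0.1 in every pair, and the samples were not treated as pairs. Deviations from a mean of 3 libraries depend on each other, so these correlations cannot settle whether samples were paired. PHF2 t/g replicates 2 and 3 correlated best with their own number in WT and replicate 1 did not. Members under about 1 CPM are limited by depth: a floor of 3 counts was 0.333 to 0.571 CPM in a single library.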
